A study of Homo sapiens with 8 samples.

Results

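Notch signalling was examined through the H3K27ac peaks around 10 genes, taken by name: the receptors NOTCH1 to NOTCH4, the ligands JAG1, JAG2, DLL1, DLL3 and DLL4, and RBPJ. They are 10 of the 20033 protein-coding genes of the annotation (GENCODE release 44, hg38). All peaks in each gene body and 50 kb on either side were taken, which gave 44 of the 15752 regions obtained by merging the peaks of all libraries. The cells were pancreatic progenitors (PPs) made from MEL1, a single established human embryonic stem cell line, which the study's methods give as MEL1 INS GFP/W, with a GFP reporter in the insulin gene. They were grown for 7 days in EF6, a DMEM and B27 medium with EGF, bFGF and the TGFβ inhibitor 616452. One group received the solvent DMSO (2 H3K27ac libraries) and the other received 1 μM I-BET151 (2 H3K27ac libraries), an inhibitor of the bromodomains with which BET proteins bind acetylated lysines. Each group also had 2 input libraries of chromatin without immunoprecipitation. The labels number the replicates but do not say that they came from separate cultures, so every p-value measures only the spread between these libraries, which may be technical.

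Notch receptors are cut when a Jagged or Delta-like ligand on a neighbouring cell engages them, and the freed intracellular part moves to the nucleus. There it joins the DNA-binding protein RBPJ and Mastermind-like coactivators and turns on HES and HEY repressor genes, while RBPJ without it holds corepressors at the same sites. In the developing pancreas this pathway is known for keeping progenitors from early endocrine differentiation. H3K27ac, acetylation of lysine 27 of histone H3, marks active promoters and enhancers.

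The 4 peak lists held 12312 to 14248 peaks from 7.76 to 9.84 M ChIP reads, and both I-BET151 lists were shorter than both DMSO lists. Of 10 defining genes of pancreatic progenitors, 9 had a peak within 3 kb of a start of a protein-coding transcript (a start peak) in every library, PTF1A being without one. Of other cell types, 0 of 6 endocrine and 0 of 5 mesenchymal genes had one in any library, and 1 of 6 pluripotency genes (LIN28A) had one in every library. The hepatocyte gene SERPINA1 (1 of 5) had a start peak in all but I-BET151 replicate 2. Of 6 endothelial genes PECAM1 had one in both DMSO libraries and in neither with I-BET151, while CDH5, KDR, TIE1, TEK and ERG had none in any. Whether PECAM1-positive cells were present, and any part of them in the results below, was not tested. In bulk chromatin, fewer cells carrying a mark and less of the mark per cell cannot be told apart.

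The bases under the NOTCH1 peaks are shown first, because this gene had the most peaks in one treatment alone. Each run gives 121 bases of the plus strand of hg38, centred on the summit of the strongest peak of a region, and the first 4 belong to regions that both I-BET151 lists held and both DMSO lists lacked, termed gained. Capitals mark a match, on either strand, to one of 6 short motifs searched in every region, which are spelled out below.
NOTCH1 gained, near the start, chr9:136544621-136544741: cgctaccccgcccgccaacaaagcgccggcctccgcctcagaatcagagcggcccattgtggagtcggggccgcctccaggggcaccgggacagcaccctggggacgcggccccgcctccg
NOTCH1 gained, intron, chr9:136526925-136527045: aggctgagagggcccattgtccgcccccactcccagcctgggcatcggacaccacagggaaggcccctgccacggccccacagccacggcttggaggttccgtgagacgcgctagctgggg
NOTCH1 gained, upstream, chr9:136584340-136584460: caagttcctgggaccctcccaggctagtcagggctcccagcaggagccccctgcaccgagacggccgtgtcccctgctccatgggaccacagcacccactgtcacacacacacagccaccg
NOTCH1 gained, far upstream, chr9:136588735-136588855: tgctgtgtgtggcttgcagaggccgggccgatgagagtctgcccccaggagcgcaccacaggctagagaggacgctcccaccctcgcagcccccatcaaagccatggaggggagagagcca
NOTCH1 upstream, 3 libraries, chr9:136588056-136588176: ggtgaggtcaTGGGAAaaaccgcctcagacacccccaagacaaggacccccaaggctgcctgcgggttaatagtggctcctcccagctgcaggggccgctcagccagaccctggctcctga
NOTCH1 start, upstream side, chr9:136546483-136546603: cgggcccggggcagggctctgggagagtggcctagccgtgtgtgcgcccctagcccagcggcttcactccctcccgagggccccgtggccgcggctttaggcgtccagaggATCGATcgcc
The fifth run belongs to a region beside the far upstream gained one and holds an RBPJ motif, and the last lies just upstream of the gene start in a region called in all libraries and holds the only HNF6 motif among the 44 regions.

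In the 201 bases around the summit, 6 of the 44 regions (13.6%) held the RBPJ motif (TGGGAA), next to 13.1% of all 15752 regions. Among these 6 was the gained NOTCH1 region near the start, whose match lies outside the 121 bases shown above. The FOXA motif (TGTTTAC) was found in 1 of the 44, and in 0.578% of all regions. The HNF6 motif (ATCGAT), which reads the same on both strands, was likewise in 1 of the 44 and in 0.273% of all regions.

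Motifs of 3 further factor families were in 0 of the 44 regions. The SOX motif (ATTGTT), whose last bases can overlap the FOXA motif, was in 1.42% of all regions, and the GATA motif (AGATAA) in 1.23%. The AP-1 motif (TGANTCA) was in 2.29%. These are descriptions of letters and not of bound sites.

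The length covered by peaks was compared first (plot of covered length by gene). With I-BET151 it was higher in both libraries than in both DMSO libraries for 4 members (NOTCH1, NOTCH4, JAG1 and DLL1), lower in both for 3 (NOTCH3, JAG2 and DLL4), overlapping for 2 (DLL3 and RBPJ), and 0 throughout for NOTCH2. For JAG1 and DLL1 the margin was only a few bases. The higher DMSO and the lower I-BET151 library had 3.128 and 3.138 kb at JAG1, and 0.794 and 0.796 kb at DLL1. Over the 15190 coding genes with a peak in their window, 12.5% were higher in both and 44.4% lower in both, with a median difference of −0.094 kb (I-BET151 minus DMSO). With 2 libraries per group the two-sided exact permutation test has 6 assignments and cannot give a p below 0.33, so no difference of a single value could pass 0.05.

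**Figure D1:**
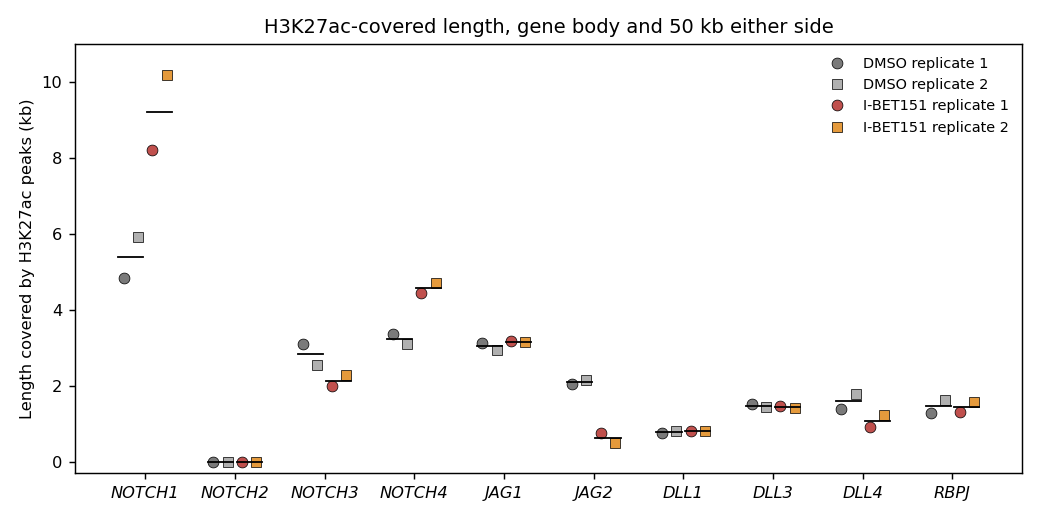
Length in kb covered by H3K27ac peaks in each gene body and 50 kb either side, by library (points) with the group mean (lines). NOTCH1 stands highest, with both I-BET151 points above both DMSO points, and JAG2 has both I-BET151 points below both DMSO points, while NOTCH2 is at 0.

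The 44 regions comprised 5 gained regions (11.4%, against 2.81% of all regions) and 4 held by both DMSO lists and lacked by both I-BET151 lists, termed lost (9.09%, against 8.60% of all regions). A further 24 (54.5%) were called in all 4 libraries, against 10317 of all 15752 regions, and 11 had another combination. Gained regions lay around NOTCH1 (4) and NOTCH4 (1), and lost ones around JAG2 (2), NOTCH3 (1) and DLL4 (1). By starts of protein-coding transcripts, 11 of the 44 had a summit within 3 kb of a start of one of the 10 genes, 16 lay at the start of another gene and 17 at none. By all annotated transcripts of the 10 genes, noncoding ones included, 14 had a summit within 3 kb of a start. NOTCH1, NOTCH3, JAG1, DLL1 and RBPJ (5 members) had a start peak in all 4 libraries, and NOTCH2, NOTCH4, JAG2, DLL3 and DLL4 (5 members) had none in any. NOTCH4 had a peak within 3 kb of the start of a noncoding transcript in every library, and the other 4 had none by either measure. No share over all coding genes stands beside these start-peak counts, which describe the members only.

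Peak height was compared as summit RPM, the ChIP reads covering the summit (worked out from the deposited values) scaled to a library of 1000000 ChIP reads. Of the 23 regions called in all libraries for which all 4 numbers could be worked out, 12 were higher in both I-BET151 libraries and 3 lower in both, with a median log2 ratio of 0.18. Among all 10267 such regions 29.8% were higher and 31.2% lower, with a median log2 ratio of 0.0012. The 12 include neighbouring regions of the same gene (NOTCH1, JAG1 and RBPJ), regions near the starts of PPT2, GPSM3 and EID2B, and an intergenic one near DLL4. The 3 lower ones lay at the starts of SEC16A, LINC02298 and VPS18. These regions are thus not independent, and many are not at the start of a member. The authors' fold enrichment, which divides by the local input, was higher in both I-BET151 libraries at 8 of 24 regions and lower at 4, against 25.4% and 16.4% of all 10317 regions. Fold and read number did not always give the same order.

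**Figure D2:**
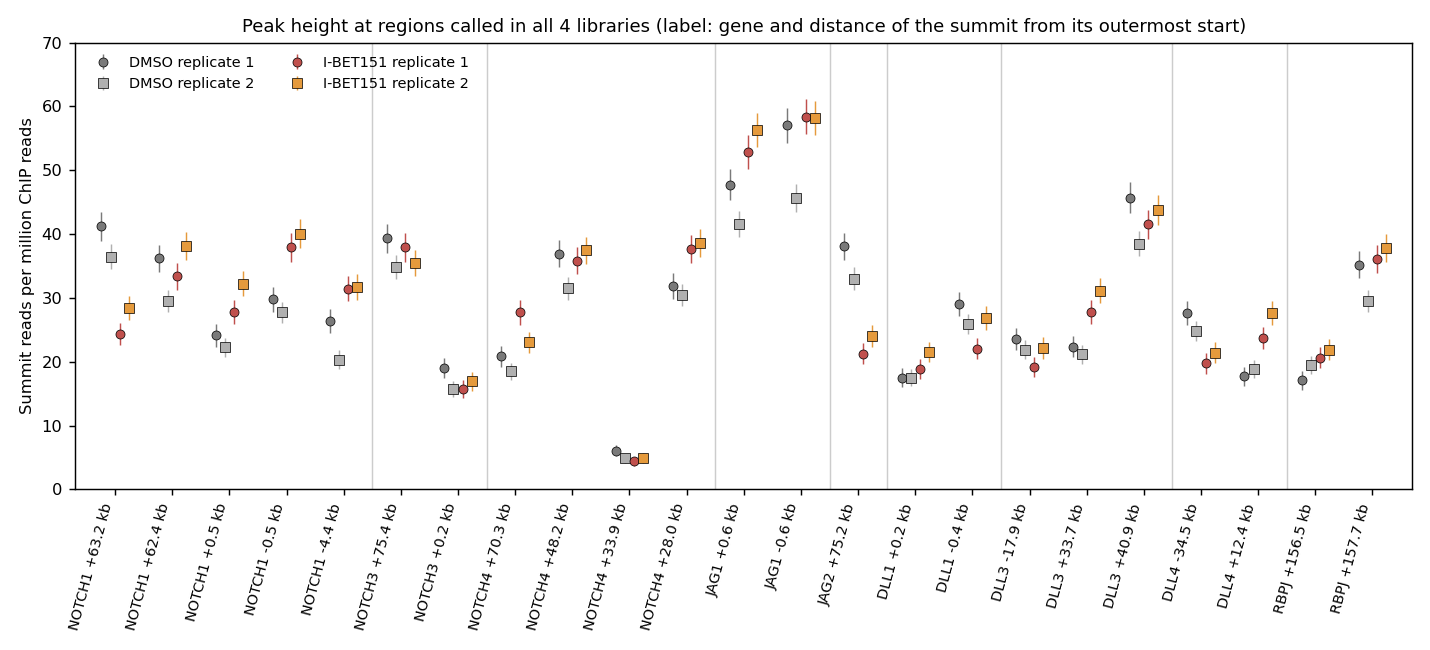
Summit RPM in each library at the 23 regions called in all 4 libraries with reads worked out, labelled by gene and by distance in kb from the outermost annotated start (negative, upstream). Error bars are the square root of the read number and cover counting error only. The 3 NOTCH1 regions at and upstream of the gene start have both I-BET151 points above both DMSO points, and the JAG2-window region has both below.

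NOTCH1 (ENSG00000148400.13, chr9:136494433-136546048, minus strand), the receptor most studied in progenitor maintenance, had the longest covered window of the 10 genes. Peaks covered 4.83 and 5.92 kb in the DMSO libraries and 8.21 and 10.2 kb in the I-BET151 libraries. Both I-BET151 libraries thus lay above both DMSO libraries, with means of 9.20 ± 1.40 and 5.38 ± 0.77 kb (SD, n = 2 each, a difference of 3.82 kb, exact permutation p = 0.33). The number of peaks was 6 and 8 against 11 and 14. Within the gene body alone coverage was 0.778 and 0.918 kb against 1.65 and 2.26 kb, and most of the window's covered length lay outside the gene.

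Of the 16 regions in the NOTCH1 window, 2 were at the start of SEC16A, a gene of secretory vesicle transport and the only other coding gene there. At the NOTCH1 start, the region chr9:136545043-136546024, in an intron, had 24.1 and 22.3 summit RPM in DMSO and 27.8 and 32.2 in I-BET151. Its log2 ratio was 0.37, and the fold enrichment overlapped (3.54 and 5.03 against 5.35 and 4.57). The neighbouring region chr9:136546203-136547067, with its summit 0.495 kb upstream of the start and 284 bp from that of MIR4674, carried the HNF6 motif shown above. It had 29.8 and 27.7 RPM against 37.9 and 40.1, and fold enrichments of 3.52 and 5.22 against 7.63 and 8.29. Both measures were higher in both I-BET151 libraries, with log2 ratios of 0.44 for reads (counting error 0.087) and 0.87 for fold (exact permutation p = 0.33 each). The local input by which the fold divides was 25 and 14.6 reads in DMSO and 14.2 and 12 in I-BET151. The larger ratio for fold thus includes a lower input. A further region, chr9:136549378-136551438, 4.40 kb upstream of NOTCH1 and 1313 bp from a transcript start of the noncoding RNA NALT1, had 26.4 and 20.3 RPM against 31.5 and 31.7 (log2 ratio 0.44), again without overlap. The fold there was 7.38 and 7.48 against 8.78 and 9.04.

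The 4 gained NOTCH1 regions were lower than these. That in the intron 1.37 kb into the gene (chr9:136544095-136544849) had 105 and 107 summit reads in the I-BET151 libraries, at folds of 2.48 and 3.32, and adjoined the start region. That 19.1 kb into the gene (chr9:136526856-136527152) had 82 and 104 reads at folds of 2.78 and 3.23. Upstream, the region at 38.4 kb (chr9:136583337-136584622) had 86 and 102 reads at folds of 2.31 and 4.35. The region at 42.7 kb (chr9:136588607-136589043) had 116 reads in each library at folds of 6.63 and 5.64 and stood furthest above its input.

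Absence from a list means only that the threshold was not passed. If the local input of the DMSO libraries equalled the higher of the input levels seen with I-BET151, a DMSO summit at the 42.7 kb region would have needed 5.65 and 5.89 RPM to pass, and the I-BET151 summits stood at 15.0 and 14.4. The lower I-BET151 summit was 2.45 times the higher of these needed values there, but 1.10 to 1.22 times at the other 3 gained NOTCH1 regions. Between 85.2% and 99.1% of the peaks of a list were at least as strong as those 3 by p-value.

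Beside the far upstream gained region, chr9:136587352-136588335, with the RBPJ motif shown above, was called in DMSO replicate 2 at 10.7 RPM and in the I-BET151 libraries at 18.3 and 20.0. It was below threshold in DMSO replicate 1. The SEC16A start went the other way at one of its regions (chr9:136482520-136483103), with 41.2 and 36.5 RPM in DMSO and 24.4 and 28.4 in I-BET151 (log2 ratio −0.56). The other SEC16A region (36.2 and 29.5 against 33.4 and 38.2) overlapped between the groups.

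**Figure D3:**
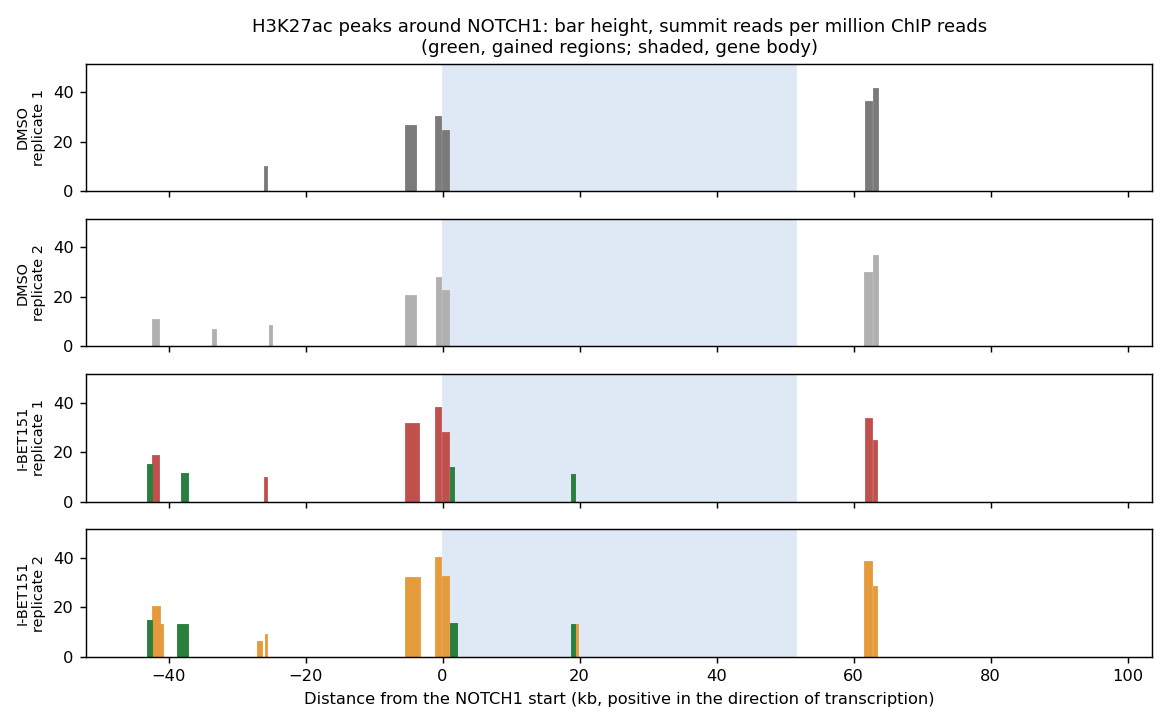
Peaks in the NOTCH1 window by library, placed by distance in kb from the NOTCH1 start, with bar height giving summit RPM, green marking gained regions and shading marking the gene body (narrow peaks are drawn at the width of the line). The 4 green regions appear in the I-BET151 libraries at 10.6 to 15.0 RPM, below the bars at the gene start, and the SEC16A bars stand on the right.

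The covered lengths most like those of NOTCH1 over the 4 libraries, by Euclidean distance among 20027 coding genes, were those of TH (tyrosine hydroxylase, distance 2.18 kb), INS and INS-IGF2 (2.38 kb each), whose windows on chromosome 11 overlap. TH had 6.37 and 6.63 kb with DMSO and 8.41 and 8.83 kb with I-BET151.

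NOTCH2 (ENSG00000134250.21, chr1:119911553-120100779, minus strand) had 0 peaks in its window in every library. The nearest peak lay 75.3 to 75.4 kb upstream of the gene in all 4, and 132 to 199 kb downstream. NOTCH2 shares nearly identical sequence with NOTCH2NLA, NOTCH2NLB, NOTCH2NLC and NOTCH2NLR, which also had 0 peaks within 3 kb of a start in any library. Reads from such copies can be lost or split in alignment, so its zero is uncertain wherever the sequence is shared. How much of the window that takes in was not tested.

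NOTCH3 (ENSG00000074181.9, chr19:15159038-15200995, minus strand), a receptor best known from vascular smooth muscle, had 3.10 and 2.54 kb covered with DMSO and 1.99 and 2.28 kb with I-BET151. The groups did not overlap (means 2.82 ± 0.39 and 2.13 ± 0.20 kb, SD, n = 2 each, difference −0.689 kb, exact permutation p = 0.33). Its own start region, chr19:15199697-15200977, overlapped between the groups in height, with 19.0 and 15.8 RPM in DMSO and 15.7 and 16.9 in I-BET151 (log2 ratio −0.089, counting error 0.12, exact permutation p = 0.67). The ILVBL start, at the downstream end of the window, was called in every library with 39.3 and 34.9 against 37.9 and 35.5 RPM, which overlapped, and folds of 6.34 and 7.28 against 12.9 and 8.68, which did not.

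NOTCH4 (ENSG00000204301.6, chr6:32194843-32224067, minus strand), a receptor known from endothelium, lies in the gene-dense class III part of the major histocompatibility complex, and 10 other coding genes overlap its window. No library had a peak within 3 kb of the start of a protein-coding NOTCH4 transcript. Coverage was 3.36 and 3.10 kb with DMSO and 4.43 and 4.70 kb with I-BET151, without overlap (3.23 ± 0.18 and 4.56 ± 0.19 kb, SD, n = 2 each, difference 1.33 kb, exact permutation p = 0.33). The region that bore most of this was gained and stood at the start of a transcript of EGFL8, a gene of a secreted EGF-like protein, 56.5 kb downstream of the NOTCH4 start (chr6:32166753-32167770, 1018 bp). It had 221 and 254 summit reads, or 28.5 and 31.6 RPM, and the lower of these was 3.55 times the height that a call in DMSO would have needed at the same input. It was thus the gained region furthest from the threshold around any of the 10 genes.

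The only peaks inside NOTCH4 were at its far end, 1 region in all libraries and a small one in I-BET151 replicate 2 alone (chr6:32197234-32197536), whose summit lay 430 bp from the start of a noncoding NOTCH4 transcript. The region chr6:32195852-32196734 covers a coding exon of NOTCH4 and lies within 3 kb of the start of GPSM3, a regulator of G-protein signalling transcribed next to it. It had 31.9 and 30.5 RPM in DMSO and 37.6 and 38.6 in I-BET151 (log2 ratio 0.29), and folds of 5.16 and 7.85 against 8.87 and 11.5. Both measures were higher in both I-BET151 libraries, with a local input of 18 and 10.4 reads in DMSO and 12 and 8 in I-BET151. It cannot be told apart whether the signal belongs to NOTCH4 or to GPSM3. At the start shared by AGPAT1 and RNF5 the read numbers overlapped (36.9 and 31.5 against 35.8 and 37.4 RPM), although the folds did not (8.09 and 8.38 against 13.7 and 11.2). The local input behind those folds was 13.0 and 10.0 reads in DMSO and 7.00 and 8.00 reads in I-BET151. The merged region near the starts of PPT2 and PRRT1 (chr6:32153488-32155099) had 20.9 and 18.5 against 27.7 and 23.0 RPM at its strongest summit. The folds at that summit overlapped (15.1 and 9.09 against 14.2 and 15.6). Both DMSO libraries had a further, lower peak in this region (16.3 and 15.4 RPM). The I-BET151 libraries had a continuous peak there instead (1525 and 1482 bp), so no separate I-BET151 height exists for the lower peak.

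Among the ligands, JAG1 (ENSG00000101384.12, chr20:10637684-10673999, minus strand), the Jagged ligand known for bile duct formation, had the tallest start peaks of the 10 genes. The promoter bases of NOTCH1 and JAG1 are shown because peaks of all 4 libraries overlap both. Each run is the 250 bases before the gene start from RefSeq (GRCh38.p14), where 8 of the 10 genes matched, and none of these 8 held TGGGAA, which was found in 20.8% of the 35116 promoters of that table. The third run is the summit of the JAG1 region just upstream, where one match (capitals) was found.
NOTCH1 promoter, chr9:136546049-136546298, minus strand: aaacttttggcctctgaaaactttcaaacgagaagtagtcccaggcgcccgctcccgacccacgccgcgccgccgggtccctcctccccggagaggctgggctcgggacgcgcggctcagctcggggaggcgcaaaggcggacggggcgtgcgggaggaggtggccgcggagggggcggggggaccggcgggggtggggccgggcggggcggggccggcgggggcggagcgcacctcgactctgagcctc
JAG1 promoter, chr20:10674000-10674249, minus strand: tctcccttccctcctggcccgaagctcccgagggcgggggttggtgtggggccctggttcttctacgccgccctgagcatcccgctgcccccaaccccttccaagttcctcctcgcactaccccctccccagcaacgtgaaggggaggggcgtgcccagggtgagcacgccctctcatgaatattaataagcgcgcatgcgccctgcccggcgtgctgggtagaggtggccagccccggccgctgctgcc
JAG1 upstream region, chr20:10674534-10674654: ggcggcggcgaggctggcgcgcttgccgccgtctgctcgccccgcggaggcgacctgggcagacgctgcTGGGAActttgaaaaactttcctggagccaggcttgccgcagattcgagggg
JAG1 coverage differed little, with 3.13 and 2.94 kb with DMSO and 3.18 and 3.14 kb with I-BET151 (difference 0.124 kb, exact permutation p = 0.33). All of it was in 2 regions on either side of the start. The upstream one, chr20:10674015-10675088, had 57.0 and 45.6 RPM in DMSO and 58.4 and 58.2 in I-BET151, and folds of 5.28 and 7.00 against 7.14 and 11.2. The log2 ratio was 0.18 for RPM (counting error 0.068) and 0.57 for fold. In RPM the DMSO replicates lay further apart than DMSO replicate 1 lay from the I-BET151 libraries. Before scaling to library depth, the summit reads were 454 and 449 in DMSO and 453 and 468 in I-BET151. Local input there was 32 and 18 reads in DMSO and 24 and 13 in I-BET151. The region inside the gene, chr20:10671641-10673838, had 47.7 and 41.6 against 52.9 and 56.4 RPM (log2 ratio 0.29), while its folds overlapped.

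JAG2 (ENSG00000184916.9, chr14:105140982-105168824, minus strand), the other Jagged ligand, had no peak in its body or at its start in any library. Its window was covered for 2.05 and 2.16 kb with DMSO and for 0.743 and 0.496 kb with I-BET151. This was the largest drop in group mean among the 10 genes (2.11 ± 0.07 against 0.620 ± 0.17 kb, SD, n = 2 each, difference −1.49 kb, exact permutation p = 0.33). All of it lay outside the JAG2 body and away from its start. The gene to which the peaks in this window belong was not tested. A region at the start of the long noncoding RNA LINC02298, 75.2 kb downstream of the JAG2 start (chr14:105092655-105093948), had 38.1 and 33.0 RPM in DMSO and 21.3 and 24.0 in I-BET151. Both reads (log2 ratio −0.65, counting error 0.096) and fold (6.48 and 5.08 against 4.37 and 4.28, log2 ratio −0.42) were lower in both I-BET151 libraries.

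Next to it the region chr14:105091808-105092315 was lost, with 135 and 143 reads in DMSO at folds of 4.87 and 3.91. The second lost region, chr14:105180956-105181355, stood at the start of NUDT14, a gene of a nucleotide sugar hydrolase 12.4 kb upstream of JAG2, with 178 and 232 reads at folds of 4.06 and 3.30. The lower DMSO summit of these lost regions was 1.67 and 1.56 times the height that a call in I-BET151 would have needed at the same input. The covered lengths nearest to those of JAG2 among 20028 coding genes were those of OXA1L (distance 0.111 kb), TRPV2 (0.281 kb) and KRT79 (0.286 kb). The sequences at the lost region beside LINC02298, at the LINC02298 start and at the gained EGFL8 region are given for comparison with the NOTCH1 runs. The only motif in them was an RBPJ motif at the LINC02298 start (capitals), where the peak was lower with I-BET151 in both libraries.
Lost, beside LINC02298 in the JAG2 window, chr14:105091949-105092069: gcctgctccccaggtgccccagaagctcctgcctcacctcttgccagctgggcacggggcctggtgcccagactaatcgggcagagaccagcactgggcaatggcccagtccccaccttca
LINC02298 start in the JAG2 window, chr14:105093553-105093673: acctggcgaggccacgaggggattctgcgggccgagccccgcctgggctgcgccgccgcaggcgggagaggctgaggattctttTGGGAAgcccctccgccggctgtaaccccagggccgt
Gained, EGFL8 in the NOTCH4 window, chr6:32167463-32167583: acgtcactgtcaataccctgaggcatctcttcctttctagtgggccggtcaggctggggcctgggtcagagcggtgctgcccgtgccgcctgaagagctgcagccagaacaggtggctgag

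**Figure D4:**
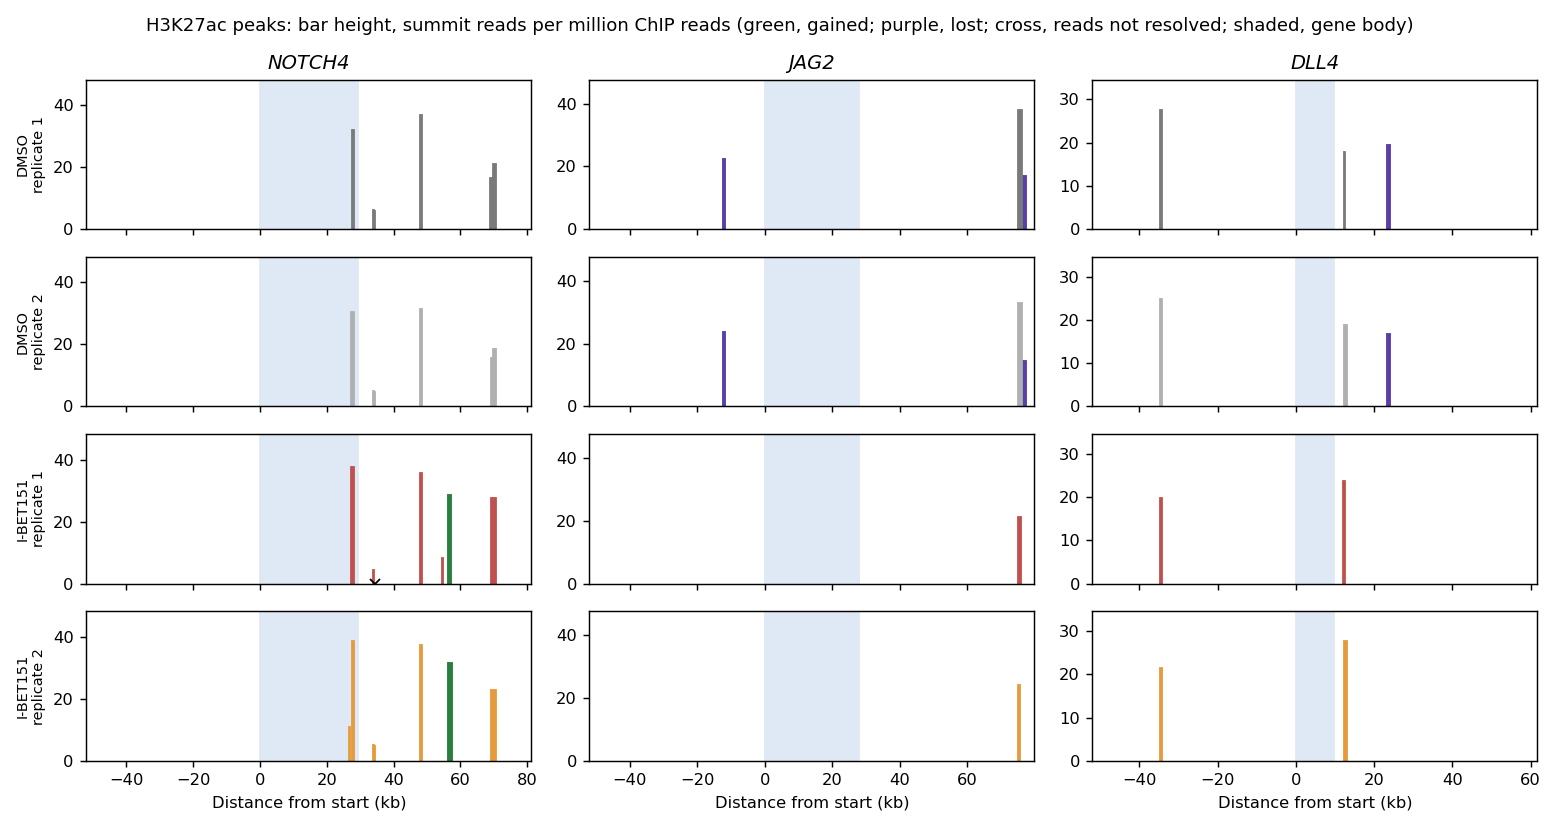
Peaks in the windows of NOTCH4, JAG2 and DLL4 by library, placed by distance in kb from the outermost gene start in the direction of transcription, with bar height giving summit RPM (narrow peaks are drawn at the width of the line). Purple regions (lost) appear in the DMSO rows for JAG2 and DLL4, the green region (gained) in the I-BET151 rows for NOTCH4, and the shaded gene bodies of JAG2 and DLL4 hold no peak.

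Of the Delta-like ligands, DLL1 (ENSG00000198719.9, chr6:170282206-170306565, minus strand), the ligand of endocrine lineage control in the pancreas, was the one with start peaks. It shares its start regions with FAM120B, transcribed away from it. Coverage was 0.744 and 0.794 kb with DMSO and 0.805 and 0.796 kb with I-BET151, a difference of 0.0315 kb (exact permutation p = 0.33). The higher of the 2 regions, chr6:170306728-170307215, overlapped between the groups with 29.0 and 25.9 RPM in DMSO and 22.0 and 26.9 in I-BET151. The other, chr6:170306123-170306538, had 17.5 in each DMSO library and 18.8 and 21.5 in I-BET151 (log2 ratio 0.21), while its folds overlapped (2.58 and 5.09 against 4.85 and 3.89).

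DLL3 (ENSG00000090932.11, chr19:39498895-39508481, plus strand), a ligand that acts inside the cell as an inhibitor of Notch, had no peak in its body. Its window held 3 regions, at the starts of TIMM50, EID2B and EID2, and coverage overlapped (1.51 and 1.43 against 1.47 and 1.40 kb, exact permutation p = 0.67). The EID2B region, chr19:39532335-39532873, was higher in both I-BET151 libraries, with 22.4 and 21.1 against 27.8 and 31.1 RPM (log2 ratio 0.44), and with folds of 6.27 and 6.91 against 7.78 and 14.0.

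DLL4 (ENSG00000128917.8, chr15:40929340-40939073, plus strand), the ligand of sprouting vessels, had no peak in its body or at its start either. Coverage of the window was 1.39 and 1.78 kb with DMSO and 0.907 and 1.24 kb with I-BET151 (1.59 ± 0.28 and 1.07 ± 0.23 kb, SD, n = 2 each, difference −0.518 kb, exact permutation p = 0.33). The start of CHAC1, a glutathione-degrading enzyme of the stress response, was lost (chr15:40952646-40953233, 155 and 164 reads in DMSO at folds of 3.34 and 4.06). Its lower DMSO summit was 1.30 times the height needed for a call in I-BET151. At the start of VPS18, a subunit of endosome tethering complexes, RPM were 27.6 and 24.8 against 19.7 and 21.4 (log2 ratio −0.35), also lower in both. The region nearest to DLL4, chr15:40941478-40942366, lies between genes 12.4 kb downstream of the DLL4 start and went the other way, with 17.7 and 18.9 RPM in DMSO and 23.7 and 27.6 in I-BET151 (log2 ratio 0.49), while its folds overlapped.

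RBPJ (ENSG00000168214.22, chr4:26163455-26435131, plus strand), the DNA-binding protein on which all 4 receptors act, was acetylated at internal starts only, 156 to 158 kb from its outermost annotated start. Coverage overlapped, with 1.29 and 1.61 kb with DMSO and 1.31 and 1.57 kb with I-BET151 (difference −0.01 kb, exact permutation p = 1). The main region, chr4:26320649-26321639, had 35.2 and 29.6 RPM in DMSO and 36.1 and 37.8 in I-BET151 (log2 ratio 0.19, counting error 0.085), and folds of 6.35 and 5.77 against 9.69 and 8.49 (log2 ratio 0.58). Neither measure overlapped, although DMSO replicate 1 and I-BET151 replicate 1 were apart by less than their counting error in reads. Local input there was 16 and 14 reads in DMSO and 10.4 and 11 in I-BET151, so the fold also includes a lower input. The region chr4:26319774-26320205 had 17.1 and 19.4 against 20.6 and 21.9 RPM, whereas its folds of 5.78 and 8.17 against 4.55 and 7.01 overlapped with a lower mean in I-BET151 (log2 ratio −0.27). A small region beside it was called in replicate 2 of each group. The 250 bases before the RefSeq start of RBPJ (chr4:26342890-26343139) overlapped 0 peaks in any library.

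Finally, 54 other genes of the pathway were examined in the same windows, of which 51 had a peak and DTX2, DLK1 and DNER had none. A window takes in neighbouring genes as well, so a difference named for a gene below can lie at a neighbour. Which gene each peak belongs to was not tested. Coverage was higher in both I-BET151 libraries for 8 (15.7%) and lower in both for 23 (45.1%), next to 12.5% and 44.4% over all coding genes, with a median difference of −0.067 kb. Every one of these non-overlapping differences had the smallest p of the exact test.

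Among the target genes, HEY1 (2.34 and 2.23 against 2.82 and 2.74 kb, DMSO first here and below) and HEY2 (3.04 and 3.07 against 3.38 and 3.24 kb) were higher in both I-BET151 libraries. HES4 (8.22 and 8.34 against 5.01 and 5.12 kb), HES5 (2.87 and 2.78 against 1.41 and 1.70 kb) and NRARP, a feedback inhibitor (7.26 and 10.0 against 6.30 and 5.40 kb), were lower in both. HES1 (5.19 and 4.76 against 6.09 and 5.14 kb) and HEYL overlapped. The 7 target windows held 41 regions, of which 2 were gained (4.88%, against 2.81% of all regions) and 8 lost (19.5%, against 8.60%), 4 of the lost ones around HES4.

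The nuclear cofactors also went both ways. Of 6 coactivators, MAML3 was higher in both I-BET151 libraries (3.85 and 3.15 against 5.40 and 5.20 kb, 1 gained region) and MAML1 lower in both (8.58 and 8.40 against 8.11 and 7.80 kb). Of 11 corepressors, 2 were higher (CTBP2 and L3MBTL3) and 6 lower, next to 12.5% and 44.4% of all coding genes with a peak. The lower ones include small differences, such as −0.0435 kb for TLE1 and −0.065 kb for NCOR1, next to the median of −0.094 kb over all coding genes. CIR1, which bridges RBPJ to histone deacetylases, had 0.355 and 0.387 kb against 0 in both.

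Among the enzymes that modify receptors, LFNG, a fringe glycosyltransferase, was higher in both I-BET151 libraries (2.85 and 3.25 against 3.82 and 4.03 kb), and RFNG was lower in both (7.87 and 8.07 against 6.32 and 7.55 kb). Of the 4 genes of ligand endocytosis, MIB1, MIB2 and NEURL1B were lower in both and NEURL1 overlapped. Of the 8 genes of receptor cleavage, by ADAM proteases and γ-secretase, 6 overlapped, APH1A was higher (1.06 and 1.04 against 1.17 and 1.08 kb) and APH1B lower. Of 10 genes of receptor turnover 6 were lower and 1 (DTX1) was higher. These counts by role stand next to 44.4% lower and 12.5% higher over all coding genes with a peak.

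**Figure D5:**
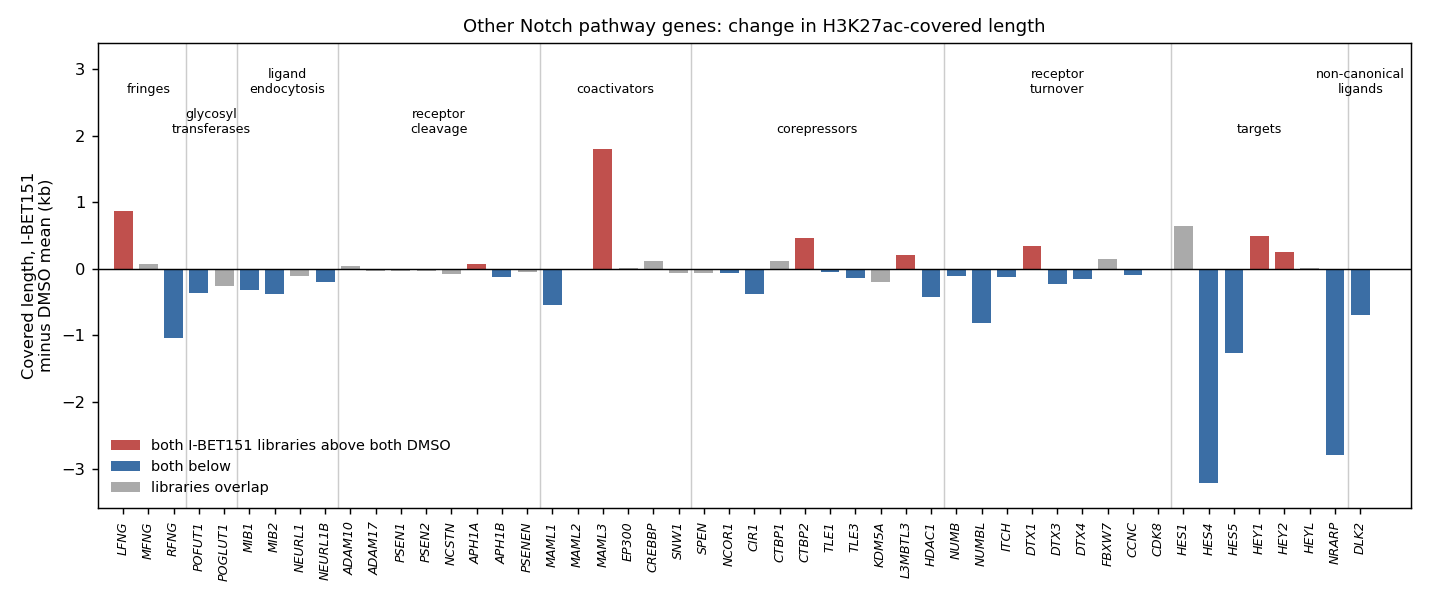
Difference in mean covered length (I-BET151 minus DMSO, kb) in the gene body and 50 kb either side, neighbouring genes included, for other pathway genes with a peak, grouped by role. Red bars have both I-BET151 libraries above both DMSO libraries (8 genes), blue bars both below, and grey bars overlap, with HES4 and NRARP lowest and MAML3 highest.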

How the data were processed

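H3K27ac ChIP-seq was analysed in 4 libraries, with groups and replicate numbers from the titles. By their methods and the labels, the authors mapped read pairs to hg38 (Bowtie2 2.2.5), removed duplicates and mitochondrial reads, and called peaks per library against input with MACS2 2.1.2 at its default q-value threshold of 0.05. The deposited lists give each peak's interval, summit, fold enrichment (a ratio over local background), −log10 p and −log10 q, and a score, which was not used. Duplicate removal caps the height of a peak, and a fixed threshold leaves weak acetylation out of shallower lists.

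The members and gene lists were chosen with earlier results of these data known. Peaks sharing at least 1 bp were merged into regions. All 10 members were described in order of role, with their start region, strongest region and every gained or lost region, and the neighbour at whose start (within 3 kb, of a protein-coding transcript unless stated) a region lay was named. The 3 genes nearest in covered length were named for the members with the most gained and most lost regions. Summit reads were worked out from each fold (pseudocount 1) and Poisson p-value (99.8 to 99.9% of peaks), and library depths with the genome size of 2.7e+09 bp that MACS2 assumes. The method was tested on simulated data. The build was checked by the share of summits within 3 kb of a coding start, which was 79.8 to 84.2% as deposited and 10.9 to 11.6% after a shift of 1 Mb. Single values were compared by the two-sided exact permutation test (scipy 1.17.1, Python 3.11.15). Reads are not independent molecules, so counting errors cover counting only. Alternatives were other windows, thresholds, merging rules and peak choices, equal list lengths, a replicate block and leaving out each library. The input libraries were not analysed as separate samples. Results at 1 locus in the NOTCH3 window and for 1 pathway gene are not reported here, although the counts include them.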

Additional observations from a re-analysis of the deposited data

How the results depend on the processing

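Of 162 recomputed values of 23 results, 135 kept their direction, with counts within 1.5 times, although sizes moved with the window. The 135 include values that repeat the main one by construction, such as differences in covered length with the replicate block. They also include NOTCH2, which stayed at 0 except with 100 kb either side. The 4 members higher and 3 lower in both I-BET151 libraries and the 5 gained and 4 lost regions depended on the window. With 10 kb either side, and with the gene body alone, 0 members were lower, 2 regions were gained and 0 lost. With 100 kb, 5 members were lower, 10 regions gained and 7 lost. Gained regions numbered 3 with −log10 q of at least 5, 3 with equal numbers of top-ranked peaks, 3 with peaks within 500 bp merged, and 6 to 9 when 1 library was left out (9 without I-BET151 replicate 1). The regions counted changed too. In I-BET151 replicate 1 the near-start, 19.1 kb and 38.4 kb NOTCH1 regions had −log10 q of 4.71, 4.64 and 2.80. A threshold of 5 dropped them and made chr9:136587352-136588335 gained, whose DMSO replicate 2 peak stood at 3.67. Merging within 500 bp joined the 42.7 kb region to chr9:136587352-136588335 and the near-start region to the start region, so neither counted as gained. The difference in covered length ranged from 2.83 to 4.81 kb for NOTCH1, from 1.20 to 1.47 kb for NOTCH4 and from −1.61 to −1.36 kb for JAG2 when 1 library was left out, and over all alternatives from 1.11 to 7.81, 0.181 to 1.47 and −2.32 to 0 kb. Signs turned for DLL4 with 10 kb (0.0445 kb, against −0.518 kb) and, near 0, for RBPJ with equal list lengths (0.114 kb), DLL3 (−0.0755 to 0.0005 kb, turned without DMSO replicate 1) and RBPJ (−0.172 to 0.152 kb, turned without DMSO replicate 2 and, at 0.117 kb, without I-BET151 replicate 1). For peak height, the log2 ratio turned to −0.089 at NOTCH3 and to 0.018 at DLL3 with RPM in place of fold, and to 0.72 at DLL3 with the strongest peak by fold. The cause of these changes was not tested beyond the fewer or more bases and peaks that each setting takes in. Same-numbered libraries share only a number (correlation of replicate differences 0.110 over 15190 genes). With the replicate block every mean difference is the same by construction, 4 members were higher and 4 lower (DLL3 in addition), and 5 regions were gained and 4 lost. Depth limits what absence from a list means.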
